A study of Mus musculus with 24 samples.

Results

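The mouse mitochondrial genome carries 13 protein-coding genes, and the messages of 10 of them are described here: mt-Nd1, mt-Nd4, mt-Nd5, mt-Nd6, mt-Cytb, mt-Co1, mt-Co2, mt-Co3, mt-Atp6 and mt-Atp8. They were taken by name, as the rows whose Ensembl identifier maps to these symbols, and all 10 were found among the 29759 genes of the expression tables. The tables hold 13 genes of the mitochondrial genome, the other 3 being mt-Nd2, mt-Nd3 and mt-Nd4l. RNA was sequenced from mouse embryonic stem cells of the single line E14 in 2 cell states. Naive cells (nESC) were grown in serum-free N2B27 medium with LIF and with inhibitors of MEK (PD0325901) and GSK3 (CHIR99021). Epiblast-like cells (EpiLC) were derived from them on gelatin in N2B27 with the growth factors activin A (20 ng/ml) and bFGF, also called Fgf2 (12 ng/ml), and were taken on day 3. In each state the chromatin, nucleoplasm and cytoplasm fractions and total RNA were each sequenced in 3 libraries, which gives 8 groups and 24 libraries. Values are FPKM, fragments counted on a gene relative to its transcript length and to the size of the library, and the table of each state was normalized on its own.

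Mitochondrial DNA is transcribed inside the organelle from both strands into long precursor RNAs, which are cut into single messages, mostly at the transfer RNAs that lie between the genes. The messages are translated on mitochondrial ribosomes into membrane subunits of the respiratory chain. The mt-Nd genes encode subunits of complex I, which takes electrons from NADH. mt-Cytb encodes cytochrome b of complex III, the mt-Co genes the catalytic core of cytochrome c oxidase (complex IV), and mt-Atp6 and mt-Atp8 subunits of the ATP synthase (complex V). All of these RNAs are made inside the organelle, and none in the nucleus.

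The genes lie on chromosome M of GRCm38 (mm10), each a single exon without introns: mt-Nd1 at 2751 to 3707, mt-Co1 at 5328 to 6872, mt-Co2 at 7013 to 7696, mt-Atp8 at 7766 to 7969, mt-Atp6 at 7927 to 8607 and mt-Co3 at 8607 to 9390. Downstream follow mt-Nd4 at 10167 to 11544, mt-Nd5 at 11742 to 13565, mt-Nd6 at 13552 to 14070 and mt-Cytb at 14145 to 15288. Only mt-Nd6 is on the minus strand. In the order of the genome, the tables list them as ENSMUSG00000064341.1, ENSMUSG00000064351.1, ENSMUSG00000064354.1, ENSMUSG00000064356.3, ENSMUSG00000064357.1, ENSMUSG00000064358.1, ENSMUSG00000064363.1, ENSMUSG00000064367.1, ENSMUSG00000064368.1 and ENSMUSG00000064370.1. Their lengths run from 204 bp for mt-Atp8 to 1824 bp for mt-Nd5. The reading frames of mt-Atp8 and mt-Atp6 overlap by 43 bp and are known to share one message, and the ends of mt-Nd5 and mt-Nd6 overlap by 14 bp on opposite strands. These overlaps are shown because their bases belong to both genes, and between mt-Nd5 and mt-Nd6 only the strand tells those bases apart. Capitals mark the bases shared by mt-Atp8 and mt-Atp6 (mt-Atp8 whole at chrM:7766-7969, mt-Atp6 its first 60 bases at chrM:7927-7986) and the complementary bases at the ends of mt-Nd5 and mt-Nd6 (last 60 bases of each, at chrM:13506-13565 on the plus and chrM:13552-13611 on the minus strand). All are GRCm38 sequence, 5′ to 3′ on the gene's own strand:
mt-Atp8: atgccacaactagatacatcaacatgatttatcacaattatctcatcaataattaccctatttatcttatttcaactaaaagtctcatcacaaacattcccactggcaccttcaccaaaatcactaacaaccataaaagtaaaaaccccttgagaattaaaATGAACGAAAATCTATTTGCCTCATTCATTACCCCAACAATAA
mt-Atp6: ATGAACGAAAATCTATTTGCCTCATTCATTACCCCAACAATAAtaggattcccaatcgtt
mt-Nd5: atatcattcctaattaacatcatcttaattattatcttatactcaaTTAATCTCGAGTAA
mt-Nd6: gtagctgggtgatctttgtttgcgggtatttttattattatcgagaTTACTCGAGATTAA

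Nuclear DNA holds copies of several of these genes. In the annotated nuclear transcripts of the same build, matches of at least 95% identity and 50 bases covered all of mt-Co1 and mt-Co2 (Gm13340 at 97.6% identity, Gm13341 at 95.9%). They covered 99.6% of mt-Atp6 (Gm10925, identical), 99.9% of mt-Co3 (Gm28437, identical), 63.6% of mt-Nd4 (Gm28439, identical) and 52.3% of mt-Nd5 (Gm4076 at 95.2%). No such match was found for mt-Nd1, mt-Atp8, mt-Nd6 or mt-Cytb. Of these nuclear genes only Gm4076 is a row of the tables. How reads that fit several places were assigned is not given in the sources used here. The values of the 6 genes with copies are uncertain to that extent. Use of strand is not given either. Since both strands are transcribed, that leaves the values of all these mitochondrial genes uncertain, and not only those of mt-Nd5 and mt-Nd6.

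The labels were checked on marker genes. Malat1, a noncoding RNA kept in the nucleus, had 3809.8 and 3589.5 FPKM in nESC nucleoplasm, but the third of those libraries lists it at 0. It had 4864 ± 531 FPKM (SD, n = 3) in nESC chromatin and 173 ± 7.92 in nESC cytoplasm, and 4545 ± 993 and 221 ± 82.7 in EpiLC. Rplp1, a ribosomal protein message of the cytoplasm, had 769 ± 148 and 26554 ± 2225 in nESC and 779 ± 493 and 16312 ± 1189 in EpiLC. In EpiLC nucleoplasm Malat1 had 1640 ± 139. Neat1, another nuclear noncoding RNA, had 25.4 ± 1.68 in nESC nucleoplasm and 9.03 ± 1.22 in cytoplasm. In EpiLC it had 3.53 ± 0.640 and 4.34 ± 0.599, so it was not higher in nucleoplasm there. In total RNA the naive marker Nanog had 277 ± 2.92 in nESC and 14.2 ± 0.688 in EpiLC. The EpiLC marker Fgf5 had 0.0553 ± 0.0178 and 54.2 ± 1.45. The step size of low values showed that 1 FPKM over 2 kb stood for 24.3 to 48.5 fragments in the chromatin and cytoplasm libraries and for 63.5 to 93.3 in the others. Replicate 3 of EpiLC chromatin stood apart from the other 2: the 10 messages were 2.53 to 5.25 times the mean of the other libraries (median 3.24), all 10 above both. The calls of the 10 messages, the share of mt-Co3 and the correlations are also given without it.

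In total RNA the order of the messages differed between the states. In nESC mt-Co3 was highest, at 6656, 6628 and 6878 FPKM in the 3 libraries, and mt-Co1 followed at 3038, 3118 and 3465. mt-Atp8 (917 to 1362) and mt-Co2 (996 to 1259.8) overlapped, and mt-Atp6 lay below both at 396 to 483. Of the complex I messages, mt-Nd5 (257 to 279) and mt-Nd6 (246 to 258) overlapped, as did mt-Nd1 (157 to 195) and mt-Nd4 (141 to 158), and mt-Cytb was lowest at 95.8 to 119.8. In EpiLC mt-Co3 was again highest, at 6012, 5389.8 and 6137, but mt-Atp8 came second at 4461, 3968 and 4354, above mt-Co1 at 2837, 2379 and 2873. Then followed mt-Co2 (1580.3 to 2012), mt-Atp6 (902 to 1106), mt-Nd1 (418 to 515) and mt-Cytb (245 to 302), none overlapping its neighbour. mt-Nd6 (145 to 190.1) and mt-Nd4 (145 to 180.2) overlapped, and mt-Nd5 was lowest at 103 to 130.1. mt-Atp8 and mt-Atp6 share a message yet stood apart in both states, so their ranks are those of gene rows. The summed level of the 10 messages was 13578 ± 658 FPKM in nESC and 16902 ± 1411 in EpiLC total RNA, or 1.41% ± 0.0871 and 2.05% ± 0.143 of all FPKM (SD, n = 3). Levels of the states come from separately normalized tables and have no test.

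**Figure D1:**
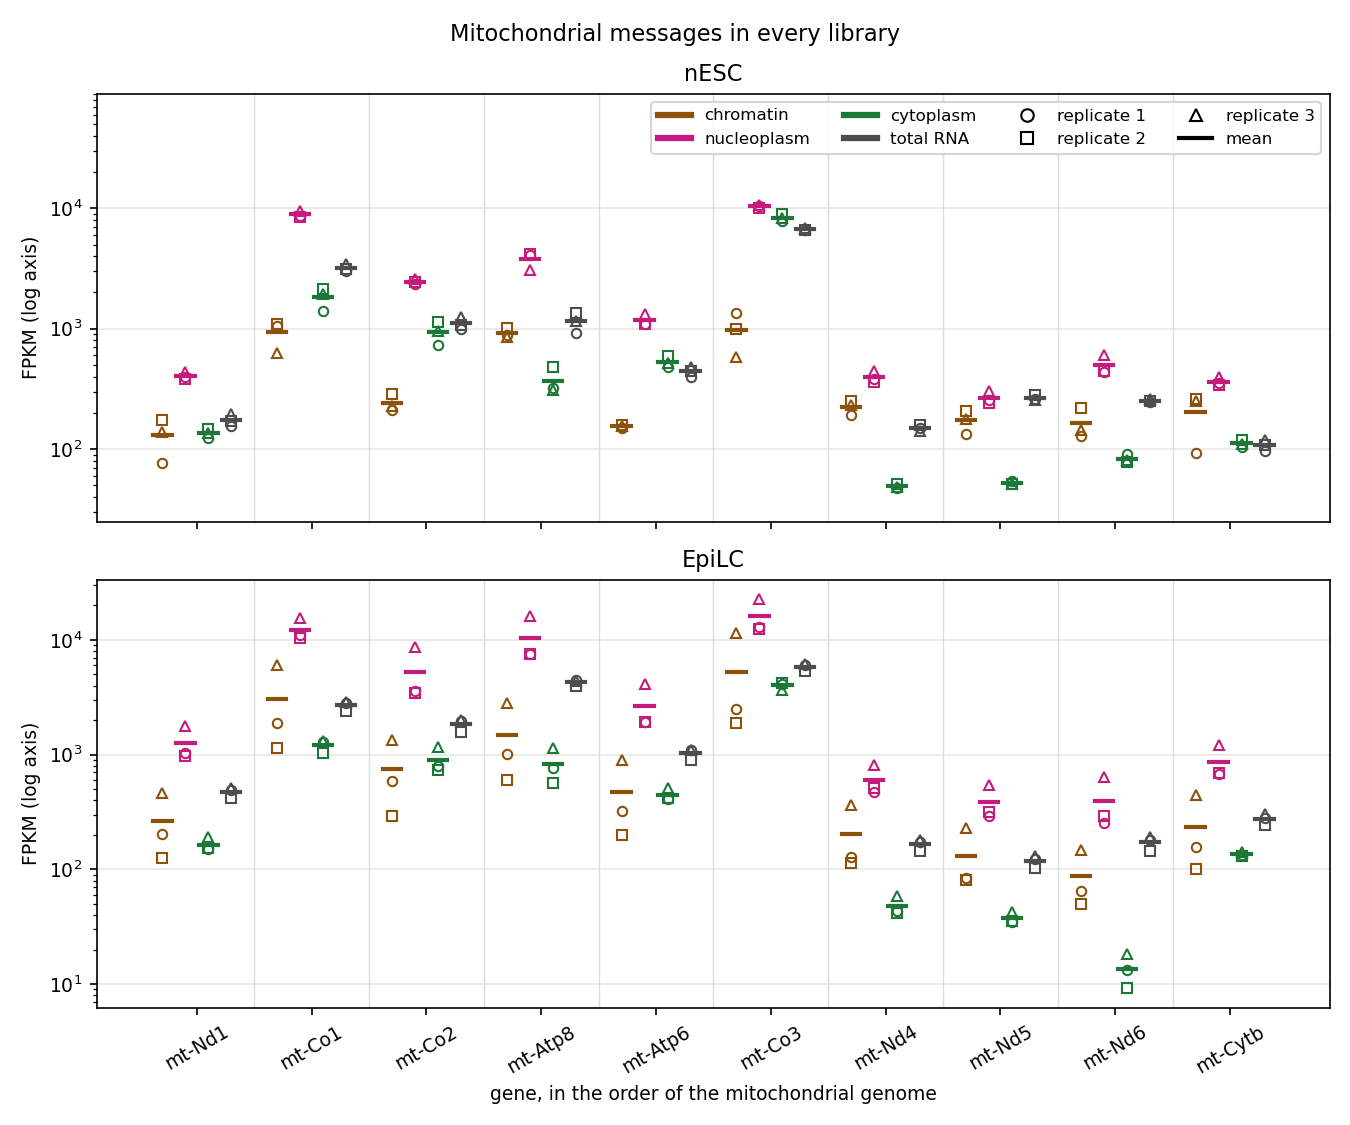
FPKM of the 10 mitochondrial messages (log axis) in every library of nESC (upper panel) and EpiLC (lower panel), with colour for the fraction, symbols for the replicate and a bar for the mean of 3 libraries. Nucleoplasm has the highest mean for each message in both states, and the triangle of EpiLC chromatin replicate 3 lies above the other 2 chromatin libraries for all 10.

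In FPKM, the messages were most abundant in the nucleoplasm fraction, not in the cytoplasm. Every nucleoplasm library lay above every library of the other 3 groups for 9 of 10 messages in nESC, where this held for 7.21% of all genes tested, and for 10 of 10 in EpiLC, where it held for 9.19%. The exception was mt-Nd5 in nESC, with 256, 243 and 301 FPKM in nucleoplasm and 260.2, 279 and 257 in total RNA. The sum of the 10 messages was 28629 ± 655 FPKM in nESC nucleoplasm against 12496 ± 1250 in cytoplasm, 4113 ± 653 in chromatin and 13578 ± 658 in total RNA (SD, n = 3). In EpiLC it was 50144 ± 19007 in nucleoplasm, 7780.2 ± 410.1 in cytoplasm, 11940 ± 10768 in chromatin and 16902 ± 1411 in total RNA. The 3 EpiLC chromatin libraries behind that SD had sums of 6952, 4571 and 24297. As shares of all FPKM of a library, which do not depend on its scaling, the 10 messages made up 3.67% ± 0.234 of nucleoplasm, 0.668% ± 0.102 of cytoplasm and 0.856% ± 0.105 of chromatin in nESC. In EpiLC they made up 6.20% ± 2.23, 0.473% ± 0.0499 and 2.47% ± 2.04, and the chromatin libraries without replicate 3 had 1.55% and 1.06%. Neither FPKM nor these shares measure the amount of RNA in a fraction, so how much of each message a fraction held is not known.

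Nucleoplasm was compared with cytoplasm on log2(FPKM + 0.5) with limma, and a gene was called where the Benjamini-Hochberg adjusted p was below 0.05 and the change at least 2-fold. In nESC 9 of the 10 messages were called higher in nucleoplasm and none lower, against 20.5% higher and 19.5% lower among the 12592 genes tested, and the median log2 fold was 2.00 against -0.08 for all genes. In EpiLC all 10 were called higher, against 20.1% higher and 19.1% lower among 12834 genes, with a median of 3.08 against -0.15. The labels do not say that replicates were separate cultures, so these p-values measure only the spread between the libraries, which may be technical. Nucleoplasm and cytoplasm did not overlap for any of the 10 messages in either state, as for 39.9% of all genes in nESC and 35.7% in EpiLC in that direction. The exact permutation test of 3 against 3 libraries cannot go below p = 0.1.

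Among the complex I messages, mt-Nd4, a proton-pumping core subunit, had 381, 360.0 and 444 FPKM in nESC nucleoplasm and 47.4, 51.3 and 48.0 in cytoplasm. All nucleoplasm values were far above all cytoplasm values, and the log2 fold was 2.99 (SE 0.10, limma adjusted p = 9.18e-11). In EpiLC mt-Nd4 had 476, 510.04 and 813 in nucleoplasm and 43.7, 41.5 and 58.5 in cytoplasm, a log2 fold of 3.61 (SE 0.36, limma adjusted p = 1.74e-06). mt-Nd6, the only message of the other strand, had 439, 442 and 606 in nESC nucleoplasm and 91.1, 77.5 and 80.8 in cytoplasm, a log2 fold of 2.55 (SE 0.17, limma adjusted p = 2.22e-08). In EpiLC its cytoplasm values were the lowest of any message, at 13.3, 9.23 and 18.3, against 255, 291 and 640.1 in nucleoplasm. The log2 fold of 4.74 (SE 0.40, limma adjusted p = 4.50e-07) was the highest of the 10. The proton-pumping subunit gene mt-Nd5 rose by 2.33 in nESC, where cytoplasm had 54.5, 51.7 and 51.2 FPKM, and by 3.28 in EpiLC, from 35.0, 35.6 and 42.7 to 292, 315 and 544. mt-Nd1, whose product lines the quinone site, rose by 1.58 in nESC, from 122.5, 147 and 136 to 397, 383 and 437. In EpiLC it rose by 2.89, from 149, 154 and 191 to 1029.5, 981 and 1786. mt-Cytb, the only complex III gene of the mitochondrial genome, rose by 1.69 in nESC and 2.62 in EpiLC, from 135, 129.8 and 141 FPKM in EpiLC cytoplasm to 680.2, 692 and 1217 in nucleoplasm.

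The complex IV messages differed from each other, and only mt-Co3 had the highest mean of the 10 in nucleoplasm and cytoplasm of both states. mt-Co1, which encodes the subunit with the oxygen-binding site, had 8706, 8514 and 9461 FPKM in nESC nucleoplasm and 1402, 2144 and 1935 in cytoplasm, a log2 fold of 2.30 (SE 0.20, limma adjusted p = 2.05e-07). mt-Co3, a structural core subunit, had 10373, 10118 and 10721 in nESC nucleoplasm and 7923, 8993 and 8268 in cytoplasm. These groups did not overlap, but the log2 fold of 0.31 (SE 0.21, limma adjusted p = 0.195) was the only one of the 10 not called. In EpiLC mt-Co3 had 12875, 12478 and 22664 in nucleoplasm and 4151, 4248 and 3620.4 in cytoplasm, a log2 fold of 1.94 (SE 0.51, limma adjusted p = 0.00396) and the lowest of the 10 there. mt-Co2, the subunit that receives electrons from cytochrome c, rose by 1.40 in nESC and 2.42 in EpiLC. Its nucleoplasm libraries had 2357, 2437 and 2571 FPKM in nESC and 3582, 3450.2 and 8586 in EpiLC, and its cytoplasm libraries 733, 1129 and 962 and, in EpiLC, 802, 735 and 1166.

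Of the complex V messages, mt-Atp8, a small membrane subunit of the enzyme's stalk, had 4069.6, 4161 and 3097 FPKM in nESC nucleoplasm and 322, 476 and 308 in cytoplasm, a log2 fold of 3.37 (SE 0.18, limma adjusted p = 3.11e-09). In EpiLC it had 7589, 7589.8 and 16264 in nucleoplasm and 769, 570.4 and 1132 in cytoplasm, a log2 fold of 3.63. Replicate 3 of EpiLC nucleoplasm was the highest library for mt-Atp8, but the other 2 were also far above cytoplasm. mt-Atp6, the subunit that forms the proton path with the rotor, had 1100.5, 1099 and 1325 in nESC nucleoplasm and 485, 592 and 522 in cytoplasm, a log2 fold of 1.14. In EpiLC it had 1909, 1942 and 4162 and 415, 417 and 512 in the same order, a log2 fold of 2.48.

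None of the scalings tried turned the direction of any of these 10 folds, but they moved their size. Centred on the median of each library, the median fold of the 10 was 1.77 in nESC, with mt-Atp6 at 0.91 no longer 2-fold. Scaled to one sum over all genes, it was 3.26 in nESC and 4.11 in EpiLC, where the median of all genes itself moved to 0.93 and 0.68, and mt-Co3 in nESC was then called at 1.58.

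In FPKM, most of these messages were lower in chromatin than in nucleoplasm, and higher or lower than in cytoplasm depending on the gene. These comparisons share libraries with those above. Against nucleoplasm, 7 of 10 were called lower in nESC chromatin and none higher, where 17.3% of all genes were lower and 17.4% higher. In EpiLC 10 of 10 were called lower and none higher, where 16.7% were lower and 16% higher, 32.7% in all. The median log2 folds were -1.87 and -2.28. Not called in nESC were mt-Nd4 (-0.81), mt-Nd5 (-0.63) and mt-Cytb (-0.98). With any 1 library left out, all 10 were called in EpiLC, with medians from -2.88 to -1.86. Scaled to one sum, 6 were called lower in nESC (median -1.17) and 8 in EpiLC, while the median of all genes moved to 0.75 in both states.

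Against cytoplasm the messages split by gene in nESC, in shares near those of all genes. mt-Nd4, mt-Nd5 and mt-Atp8 were called higher in chromatin, and mt-Co2, mt-Co3 and mt-Atp6 lower, against 31.8% and 29.7% of all genes, 61.5% in all. Without any overlap between libraries, 4 messages lay above cytoplasm (mt-Nd4, mt-Nd5, mt-Nd6 and mt-Atp8) and 4 below (mt-Co1, mt-Co2, mt-Co3 and mt-Atp6), as did 43.4% and 42.5% of all genes. The frames of mt-Atp8 and mt-Atp6 share a message but stand on opposite sides in both counts. The counts are therefore of gene rows and not of separate RNAs. mt-Nd4 had 192, 251 and 234 FPKM in nESC chromatin and 47.4, 51.3 and 48.0 in cytoplasm, a log2 fold of 2.19 (SE 0.10, limma adjusted p = 2.35e-10). mt-Co3 had 1339.8, 992 and 584 in chromatin and 7923, 8993 and 8268 in cytoplasm, a log2 fold of -3.19 (SE 0.21, limma adjusted p = 8.73e-09). So the chromatin libraries were all above the cytoplasm libraries for mt-Nd4 and all below for mt-Co3. mt-Nd5 rose by 1.70 and mt-Atp8 by 1.34, while mt-Co2 (-1.95) and mt-Atp6 (-1.78) fell in the deposited scaling but stood at 0.02 and 0.19, not called, when each library was scaled to one sum. mt-Co1 had -0.99 (limma adjusted p = 0.000352) and mt-Nd6 0.94 (limma adjusted p = 0.000177), both short of 2-fold. mt-Cytb had 0.72 and mt-Nd1 -0.13, neither called. With that scaling, which moved the median of all genes from 0.04 to 1.93, 6 messages were called higher and 1 lower, and the median of the 10 went from 0.29 to 2.26. The share called higher with that scaling was larger among all genes than among the 10, as given below for the endoplasmic reticulum.

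In EpiLC 3 of 10 messages were called higher in chromatin than in cytoplasm and none lower, against 29.1% and 28.4% of all genes, 57.6% in all. The same 3 were the only messages whose libraries did not overlap, all above cytoplasm, which held for 41.1% of all genes, and 41.6% lay below. They were the complex I messages mt-Nd4 (1.87, SE 0.36), mt-Nd5 (1.61, SE 0.34) and mt-Nd6 (2.53, SE 0.40). mt-Nd4 had 127, 113 and 367 FPKM in EpiLC chromatin against 43.7, 41.5 and 58.5 in cytoplasm, so replicate 3 was high but each chromatin library was above each cytoplasm library. For mt-Nd6 the values were 65.0, 49.7 and 146 in chromatin and 13.3, 9.23 and 18.3 in cytoplasm, again without overlap. mt-Co3 had 2507, 1875 and 11502 in chromatin and 4151, 4248 and 3620.4 in cytoplasm: the first 2 chromatin libraries were below the cytoplasm libraries and the last was above. Without EpiLC chromatin replicate 3, mt-Nd4, mt-Nd5 and mt-Nd6 kept their calls at 1.33, 1.13 and 2.08, mt-Co2 was called lower at -1.09, and the median of the 10 went from 0.55 to -0.03. Scaled to one sum, all 10 were called higher, with a median of 2.39, while the median of all genes moved to 1.76. Most of all genes were also called higher with that scaling. Without EpiLC chromatin replicate 2, mt-Co1 (1.505) and mt-Atp8 (1.09) were also called higher. Without nESC chromatin replicate 1, mt-Nd6 (1.10) and mt-Cytb (1.20) were also called higher in nESC, and mt-Co1 (-1.11) lower.

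**Figure D2:**
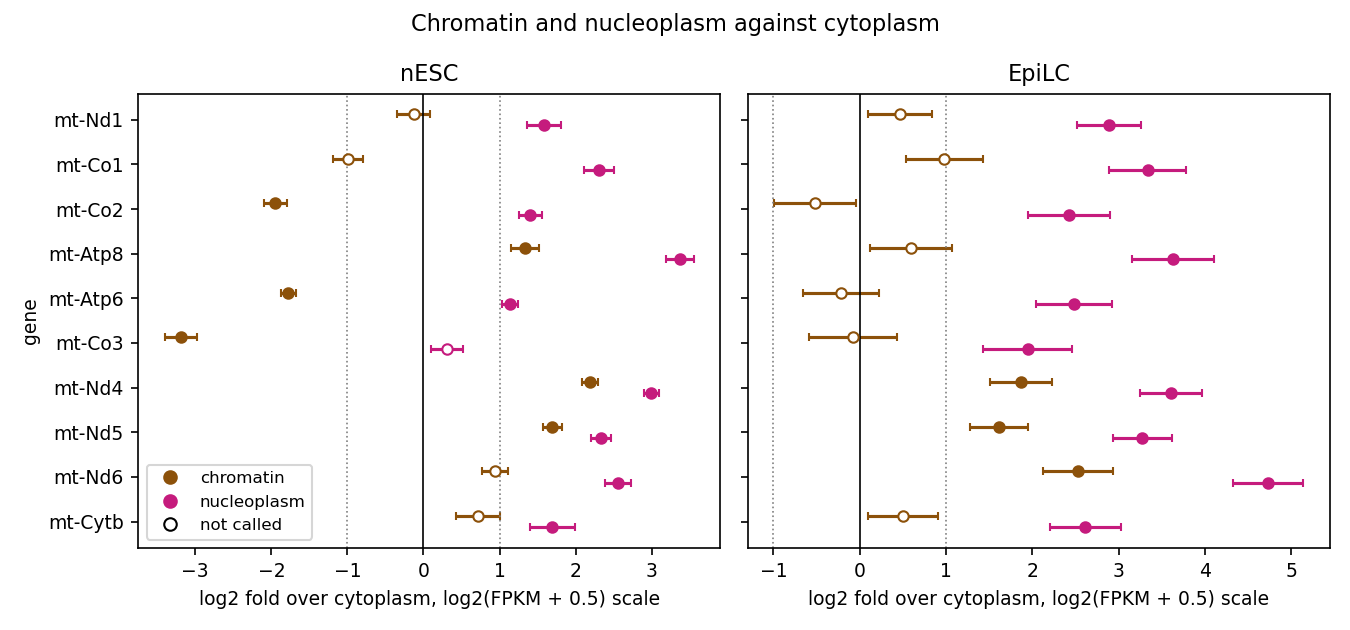
Log2 fold over cytoplasm (scale of log2(FPKM + 0.5), bars 1 SE, 3 libraries a group) of chromatin (brown) and nucleoplasm (magenta) for each message in nESC (left) and EpiLC (right), with dotted lines at 2-fold and open symbols where not called. Nucleoplasm lies right of 0 for all 10 in both states, while chromatin in nESC ranges from -3.19 for mt-Co3 to 2.19 for mt-Nd4.

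Several of the messages were lower in cytoplasm than in total RNA. In nESC 4 of 10 were called lower in cytoplasm and none higher, against 19.4% and 16% of all genes: mt-Nd4 (-1.60), mt-Nd5 (-2.33), mt-Nd6 (-1.60) and mt-Atp8 (-1.65). In EpiLC 8 of 10 were called lower and none higher, against 17.6% and 12.7% of all genes, with mt-Nd6 lowest at -3.65 (SE 0.40, limma adjusted p = 6.25e-06). Not called there were mt-Co2 (-1.06, limma adjusted p = 0.0573) and mt-Co3 (-0.55). In EpiLC every cytoplasm library was below every total RNA library for 10 of 10 messages, as for 34.9% of all genes, and in nESC for 6 of 10, as for 38.5%. The same counts, 10 and 6, lay below both total RNA and nucleoplasm, as did 28.3% and 30.1% of all genes. Leaving out EpiLC cytoplasm replicate 1 or 2, or EpiLC total RNA replicate 1 or 3, ended the calls on mt-Co1, mt-Atp6 and mt-Cytb and left 5. Over the 6 EpiLC fits that leave out 1 library, mt-Cytb was called in 0, mt-Co1 in 1 and mt-Atp6 in 2. These fits gave 5 to 7 calls, so none kept all 8. Scaled to one sum, 7 messages were called lower in nESC, with a median of -1.56 against -0.60, and the median in EpiLC was -2.37 against -1.37, while the median of all genes moved to -0.69 and -0.72.

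The composition of the mitochondrial messages also differed between fractions. Each message was expressed as a percentage of the summed FPKM of the 10, which no scaling of a library can change. mt-Co3 made up 67.3% ± 2.57 of the sum in nESC cytoplasm, 49.5% ± 1.75 in total RNA, 36.3% ± 0.281 in nucleoplasm and 23.3% ± 7.30 in chromatin (SD, n = 3). In EpiLC the shares were 51.7% ± 6.86 in cytoplasm, 34.6% ± 0.605 in total RNA, 32.1% ± 0.539 in nucleoplasm and 41.5% ± 5.65 in chromatin. mt-Co3 thus took its highest mean share in the cytoplasm in both states, although in EpiLC cytoplasm replicate 3, at 44.2%, lay below chromatin replicate 3, at 47.3%. mt-Nd4 went the other way, with 0.393% ± 0.0245 in nESC cytoplasm and 5.59% ± 1.21 in chromatin, and 0.613% ± 0.0878 and 1.94% ± 0.493 in EpiLC. mt-Nd5 rose from 0.423% ± 0.0545 in nESC cytoplasm to 4.29% ± 1.08 in chromatin, and mt-Nd6 from 0.673% ± 0.124 to 3.99% ± 0.864. These shares are descriptions with no test.

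The ratio of mt-Co3 to mt-Nd4 within a library, a pair chosen after the values were seen, shows the same without any sum. It was 167, 175 and 172 in the nESC cytoplasm libraries, 44.6, 41.9 and 48.7 in total RNA, 27.2, 28.1 and 24.2 in nucleoplasm and 6.97, 3.95 and 2.50 in chromatin. In EpiLC it was 94.9, 102 and 61.9 in cytoplasm, 34.8, 37.1 and 34.1 in total RNA, 27.1, 24.5 and 27.9 in nucleoplasm and 19.7, 16.6 and 31.4 in chromatin. The groups of nESC did not overlap, and in EpiLC the cytoplasm libraries lay above all others. In the nucleoplasm the ratio of the states did not differ beyond its spread, at 26.5 ± 2.07 and 26.5 ± 1.78 (SD, n = 3). From the highest to the lowest message the span within a library was 6.08-fold in nESC chromatin replicate 3 and 460-fold in EpiLC cytoplasm replicate 2.

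mt-Atp8 and mt-Atp6 did not keep one ratio, although both frames printed above lie on one message. mt-Atp8 was 5.95, 6.42 and 5.42 times mt-Atp6 in the nESC chromatin libraries, 3.70, 3.78 and 2.34 times in nucleoplasm, 2.32, 3.03 and 2.42 times in total RNA and 0.664, 0.804 and 0.589 times in cytoplasm. In EpiLC the ratios were 3.13, 3.02 and 3.19 in chromatin, 3.97, 3.91 and 3.91 in nucleoplasm, 4.08, 4.40 and 3.94 in total RNA and 1.85, 1.37 and 2.21 in cytoplasm. At 204 bp mt-Atp8 is the shortest of the 10 genes. The part of gene length in this spread was not tested. Across the 10 genes in EpiLC, the log2 share in a fraction over that in total RNA went with log2 gene length in chromatin (Pearson's r = 0.869, n = 10) and nucleoplasm (0.75), less so in cytoplasm (0.42). Without EpiLC chromatin replicate 3 the value in chromatin was 0.874. In nESC r was 0.09, -0.37 and -0.02. The genes share their libraries, so these values are descriptions.

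mt-Nd5 and mt-Nd6, transcribed from opposite strands, also changed ratio. In nESC mt-Nd5 was 1.06, 1.11 and 0.996 times mt-Nd6 in total RNA, 1.03, 0.944 and 1.25 in chromatin, 0.584, 0.550 and 0.497 in nucleoplasm and 0.598, 0.668 and 0.634 in cytoplasm. In EpiLC it was 0.685, 0.708 and 0.684 in total RNA, 1.31, 1.63 and 1.56 in chromatin, 1.15, 1.08 and 0.850 in nucleoplasm and 2.63, 3.86 and 2.34 in cytoplasm. In cytoplasm, then, mt-Nd6 exceeded mt-Nd5 in nESC and fell short of it in EpiLC.

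**Figure D3:**
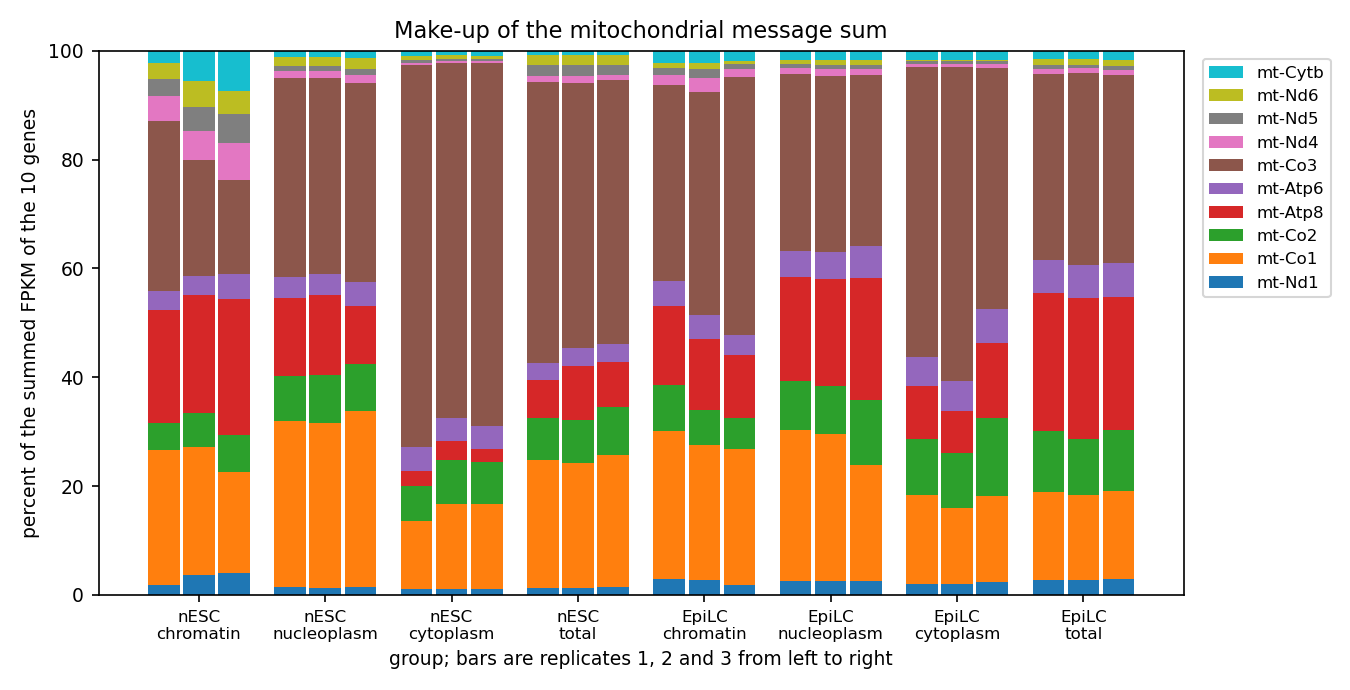
Share of each of the 10 messages in their summed FPKM (percent), 1 bar per library, grouped by state and fraction. The band of mt-Co3 is widest in cytoplasm, at 67.3% of the sum in nESC and 51.7% in EpiLC, and narrowest in nESC chromatin.

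Whether chromatin against cytoplasm differed between the states was tested as an interaction, EpiLC minus nESC, over 12 libraries centred on their medians. Of the 10 messages 4 were called higher in EpiLC and none lower, against 6.24% and 4.97% of 13422 genes, with a median of 1.09. mt-Co3 had the largest difference, 3.19 on the log2 scale (SE 0.73, limma adjusted p = 0.00815). mt-Co1 (2.05, SE 0.65, limma adjusted p = 0.0381), mt-Nd6 (1.66, SE 0.49, limma adjusted p = 0.0276) and mt-Atp6 (1.64, SE 0.54, limma adjusted p = 0.0422) were also called. mt-Co3 was called in 12 of the 12 fits that leave out 1 library, with 2.37 without EpiLC chromatin replicate 3. mt-Nd6 was called in 7 of them, mt-Co1 in 4 and mt-Atp6 in 3. Leaving out nESC chromatin replicate 1 or 3, nESC cytoplasm replicate 3 or EpiLC cytoplasm replicate 2 left 1 call each. Leaving out nESC chromatin replicate 2, nESC cytoplasm replicate 1 or 2, or EpiLC cytoplasm replicate 1 or 3 left 2. Without EpiLC chromatin replicate 3 the 4 calls stood, with mt-Co1 at 1.35, mt-Atp6 at 1.02 and mt-Nd6 at 1.19, and mt-Atp8 was called lower at -1.30 (limma adjusted p = 0.0219). mt-Nd4 (-0.24, limma adjusted p = 0.759) and mt-Nd5 (limma adjusted p = 0.996), called higher in chromatin in both states, had no called difference.

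Replicate 3 of EpiLC chromatin was high for other cytoplasmic messages too. Its ratio to the mean of the other 2 chromatin libraries had a median of 1.88 over 77 nuclear-encoded respiratory chain genes (73 above both), 1.98 over 40 genes of the endoplasmic reticulum (38 above both) and 1.86 over 79 cytosolic ribosomal protein genes (79 above both). Over all genes of at least 5 FPKM the median was 0.923. The mitochondrial messages, with 3.24, went furthest, led by mt-Co3 with 11502 FPKM against 2507 and 1875. In EpiLC nucleoplasm replicate 3 all 10 were also above both other libraries, with a median ratio of 1.79, and mt-Co3 had 22664 FPKM against 12875 and 12478. Replicate 3 was also above both other libraries for 9 of 10 messages in EpiLC cytoplasm (median ratio 1.24) and for 9 of 10 in EpiLC total RNA (1.13), so it was high for these messages in all 4 EpiLC groups. In EpiLC nucleoplasm replicate 3 the other lists were not raised: the ratio was 0.928 for the nuclear respiratory chain, 0.779 for the endoplasmic reticulum and 0.971 for ribosomal proteins. With both of these libraries left out, all 10 messages were still called higher in EpiLC nucleoplasm than in cytoplasm, from 1.67 for mt-Co3 to 4.33 for mt-Nd6. The part of carried-over cytoplasmic RNA in these libraries was not tested.

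**Figure D4:**
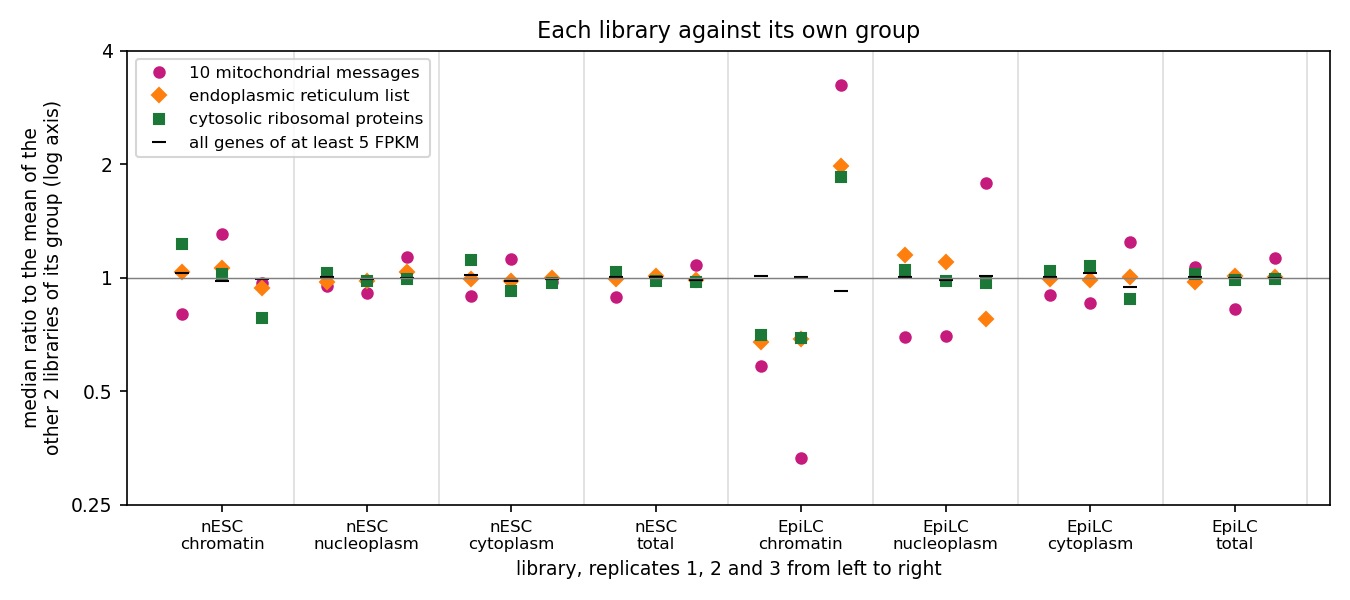
Median ratio of each library to the mean of the other 2 libraries of its group (log axis), for the 10 mitochondrial messages, the endoplasmic reticulum list, the cytosolic ribosomal protein list and all genes of at least 5 FPKM. EpiLC chromatin replicate 3 is high for all 3 lists (3.24, 1.98 and 1.86), and EpiLC nucleoplasm replicate 3 for the mitochondrial messages alone among the lists drawn (1.79).

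Nuclear genes of the respiratory chain, complex II included, were mostly lower in chromatin than in cytoplasm, and called lower far more often than higher in nucleoplasm with the deposited scaling. Their messages are translated in the cytosol and the proteins imported into mitochondria. Of 77 such genes, 74 were called lower in chromatin than in cytoplasm in each state and none higher, with median log2 folds of -2.93 in nESC and -2.79 in EpiLC. Of all genes 29.7% and 28.4% were called lower there. With libraries of one sum, 37 and 33 were lower and 3 and 3 higher, with medians of -0.97 and -0.96. The medians of all genes moved to 1.93 and 1.76 with that scaling. Ndufc1 of complex I fell by 4.73 in nESC and 4.97 in EpiLC, Atp5e of complex V by 4.87 and 4.54, and Sdhc of complex II, which has no mitochondrially encoded subunit, by 3.80 and 3.46. In nucleoplasm against cytoplasm, 32 of the 77 were called lower and 1 higher in nESC (median -0.75), and 35 lower and 2 higher in EpiLC (median -0.92), where the mitochondrial messages had 2.00 and 3.08. Among all genes 19.5% and 19.1% were called lower, and 20.5% and 20.1% higher. When each library was scaled to one sum, the medians of the 77 genes turned to 0.51 and 0.12, with 16 higher and 1 lower in nESC and 6 higher and 4 lower in EpiLC, while those of the mitochondrial messages were 3.26 and 4.11. The medians of all genes were then 0.93 and 0.68. In cytoplasm against total RNA, 23 of the 77 were called higher and 1 lower in nESC, and 43 higher and none lower in EpiLC. With one sum none was higher there, 6 were lower in nESC and 1 in EpiLC. With the deposited scaling, 16% of all genes were called higher and 19.4% lower in cytoplasm against total RNA in nESC, 35.4% in all. In EpiLC 12.7% were higher and 17.6% lower, 30.3% in all.

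Messages for proteins of the endoplasmic reticulum were split. Of 40 such genes 18 were called higher in nucleoplasm than in cytoplasm and 2 lower in nESC (median 0.92), and 18 and 3 in EpiLC (median 0.95). Of all genes 20.5% were higher and 19.5% lower in nESC, and 20.1% and 19.1% in EpiLC. The chaperone gene Hsp90b1, chosen after its values were seen, had the highest folds of the list, 3.84 in nESC and 4.10 in EpiLC. In chromatin against cytoplasm 7 were called higher and 14 lower in nESC and 9 higher and 12 lower in EpiLC, against 31.8% higher and 29.7% lower of all genes in nESC and 29.1% and 28.4% in EpiLC. The lowest in nESC were Sec61b and Sec61g, subunits of the protein channel, at -3.30 and -3.09. With libraries of one sum, 26 and 27 of the 40 were called higher in chromatin, where 68.5% and 67.1% of all genes were, and 30 and 29 in nucleoplasm, where 47.4% and 38.5% were. Of 79 cytosolic ribosomal protein genes 70 were called lower in nESC nucleoplasm and 72 in EpiLC (medians -1.65 and -1.45), against 8 and 12 with one sum. Among all genes 19.5% and 19.1% were called lower with the deposited scaling. Of the nuclear noncoding RNAs 4 of 9 were called higher in nESC nucleoplasm and 3 of 10 in EpiLC, and 8 of 9 and 10 of 10 in chromatin. The shares of all genes called higher were 20.5% and 20.1% in nucleoplasm and 31.8% and 29.1% in chromatin.

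**Figure D5:**
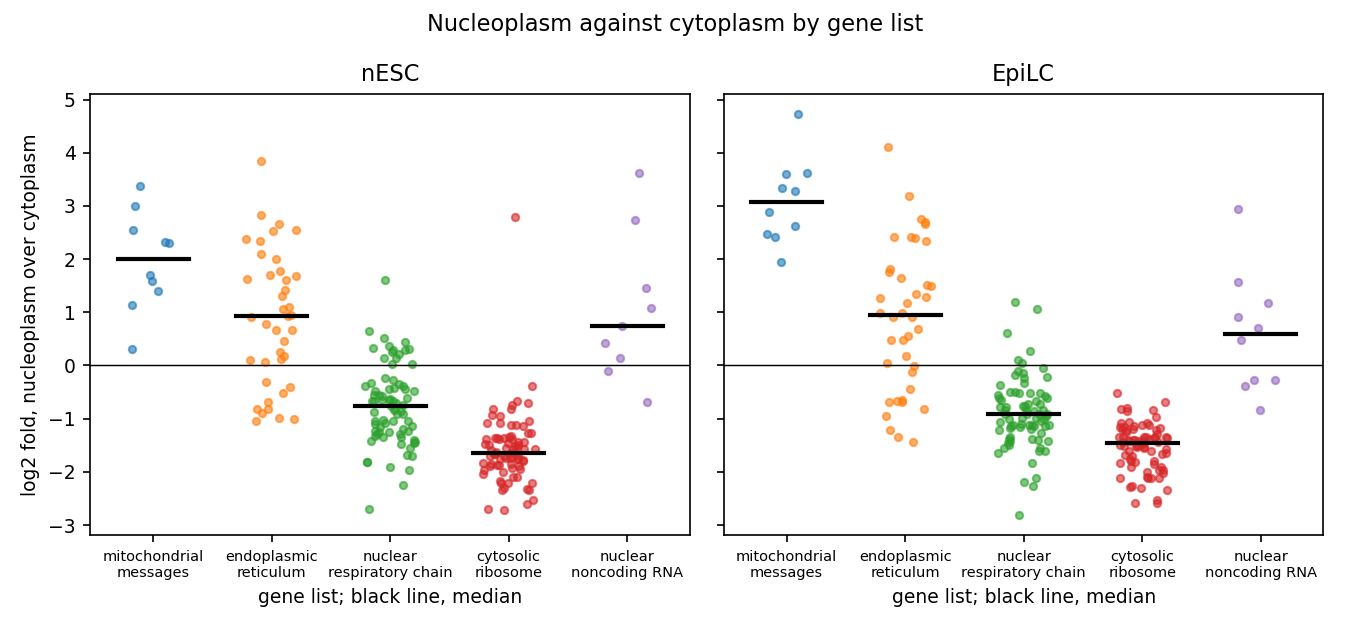
Log2 fold of nucleoplasm over cytoplasm for each tested gene of 5 lists (points, with the median as a black line) in nESC (left) and EpiLC (right). The medians of the mitochondrial messages, 2.00 and 3.08, are the highest of the 5 lists, and those of the nuclear respiratory chain, -0.75 and -0.92, lie below 0 (with each library scaled to one sum they were 0.51 and 0.12).

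The nuclear genes listed as acting on mitochondrial DNA, its RNA and its translation were mixed. Of 39 tested, 8 were called higher in nucleoplasm than in cytoplasm and 5 lower in nESC, and 11 and 5 in EpiLC, with medians of 0.09 and 0.04. As shares of the list these are 20.5% and 12.8% in nESC and 28.2% and 12.8% in EpiLC, against 20.5% and 19.5% and against 20.1% and 19.1% of all genes. In chromatin against cytoplasm the counts were 13 and 10 in nESC and 7 and 11 in EpiLC, or 33.3% and 25.6% and 17.9% and 28.2% of the list, against 31.8% and 29.7% and 29.1% and 28.4% of all genes. With libraries of one sum, 23 were called higher and none lower in nESC nucleoplasm, and 20 and none in EpiLC, where 47.4% and 38.5% of all genes were called higher. Hsd17b10, a subunit of the mitochondrial RNase P that frees the transfer RNAs, fell by 3.33 and 2.86 in chromatin. Pnpt1, a mitochondrial polynucleotide phosphorylase, rose by 2.63 in nESC chromatin. Tsfm and Tufm, elongation factors of mitochondrial translation, fell by 2.41 and 2.39 in EpiLC.

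The genes outside the mitochondrial genome whose pattern over the 12 libraries of a state was most like the median of the 10 messages were named by Pearson's r of log2(FPKM + 0.5). In nESC, among 8455 genes, they were Scarb2 (0.972), Slc31a1 (0.969), Spp1 (0.962), P4ha1 (0.961) and Armh4 (0.961). Scarb2 had 58.1 FPKM in nucleoplasm against 9.87 in cytoplasm, 8.46 in chromatin and 17.6 in total RNA. In EpiLC, among 8520 genes, they were P4ha2 (0.935), Arxes2 (0.934), Atp2a2 (0.923), Aifm1 (0.923) and Armcx3 (0.918), none of which was among the 5 of nESC. Without EpiLC chromatin replicate 3, Copb1 (0.976), Dync1i2 (0.975), Dhx29 (0.969), Rpf2 (0.968) and Utp14a (0.964) were highest, and the 5 genes named with it had r from 0.929 to 0.942 and ranks from 29 to 54. Aifm1 had 76.7 FPKM in nucleoplasm, 28.1 in cytoplasm, 24.5 in chromatin and 36.7 in total RNA. The libraries behind each r fall into 4 groups by fraction.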

How the data were processed

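RNA was taken with TRIzol from 3 fractions and total RNA of both states, ribosomal RNA was depleted and stranded libraries were sequenced, per the labels' protocols; nuclei were isolated over sucrose. The deposited values are FPKM per gene, 1 table for each state, which, per the submitters' processing notes, the authors made by TopHat2 alignment to the mouse build mm10 (GRCm38) followed by Cuffnorm. The sources used here do not give tool versions, annotation, normalization setting, treatment of multiply mapped reads or use of strand.

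From these, log2(FPKM + 0.5) was fitted with limma 3.58.1 (limma-trend, R 4.3.3) over the 12 libraries of a table, for genes whose mean reached 1 FPKM, and the deposited log2 scale was left uncentred except in the test between the states, for which each library was centred on its median. p-values were adjusted by Benjamini-Hochberg over all genes tested, and a call needed an adjusted p below 0.05 and a 2-fold change. All 10 mitochondrial messages passed the filter in both tables. A fold on this scale understates the change of low genes. No counts were recovered: 84.7% to 92.8% of low values of 1276 genes were whole steps of 1 fragment, from which relative depth was read, and precision of low values is limited by it.

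The members and gene lists were chosen with earlier results of these data known. All 10 messages are named, up to 3 genes of a list by the largest absolute fold of chromatin over cytoplasm, and the 5 most alike genes per state by Pearson's r, for genes of at least 5 FPKM. The rules on libraries that do not overlap and the pair ratios were added after the values were seen. Gene positions are from the GENCODE annotation of GRCm38, and nuclear copies were searched with BLAST 2.17.0. The fit was tested on simulated data. Alternatives covered the pseudocount, the filter, the scaling, the replicate block and each library left out.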

Additional observations from a re-analysis of the deposited data

Results flagged for a closer look

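For 4 of the 10 messages the fold of chromatin over cytoplasm differed between EpiLC and nESC by a test of the difference itself. Of the 13422 genes tested 11.2% were called, 6.24% higher and 4.97% lower. The log2 difference, EpiLC minus nESC, was 2.05 for mt-Co1, 1.64 for mt-Atp6, 3.19 for mt-Co3 and 1.66 for mt-Nd6, and all 4 were higher in EpiLC. mt-Co3 was called in 12 of 12 fits without 1 library, from 2.37 to 3.70. mt-Nd6 was called in 7 of these fits, mt-Co1 in 4 and mt-Atp6 in 3. With no filter on low values 3 of the 4 calls were lost. mt-Atp8, which shares a message with mt-Atp6, had -0.67 and was not called. EpiLC chromatin replicate 3, in which endoplasmic reticulum and ribosomal protein messages were also high, moved with the 4 called values. Without it mt-Co1 had 1.35, mt-Atp6 1.02, mt-Co3 2.37 and mt-Nd6 1.19.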

How the results depend on the processing

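Scaling each library to one sum, or to one sum outside the mitochondrial genome, moved the median log2 fold of the 10 messages in the comparisons within a state. Chromatin over cytoplasm went to 2.26 and 2.26 in nESC, with 6 and 6 called higher and 1 and 1 lower, and mt-Co2 turned to 0.024 and 0.028 and mt-Atp6 to 0.19 and 0.19. In EpiLC it went to 2.39 and 2.42, with 10 and 10 higher. There the median of all genes moved to 1.93 and 1.93 in nESC and to 1.76 and 1.79 in EpiLC. Most of all genes were also called higher with one sum. For the messages, nucleoplasm over cytoplasm went to 3.26 and 3.31 in nESC (1.77 when centred on the median) and 4.11 and 4.21 in EpiLC. Chromatin over nucleoplasm in nESC went to -1.17 and -1.21. Cytoplasm over total RNA went to -1.56 and -1.58 in nESC, with 7 and 7 lower, and -2.37 and -2.40 in EpiLC. The medians of all genes moved here too. Nucleoplasm over cytoplasm had 0.93 and 0.98 in nESC and 0.68 and 0.76 in EpiLC for all genes. Chromatin over nucleoplasm in nESC had 0.75 and 0.71. Cytoplasm over total RNA had -0.69 and -0.70 in nESC and -0.72 and -0.75 in EpiLC. With no filter, 5 of the 10 messages were lower in EpiLC cytoplasm than in total RNA, and 1 differed between the states. Without EpiLC chromatin and nucleoplasm replicate 3, chosen after seeing the data, the chromatin median in EpiLC turned to -0.033 with 1 lower. Without EpiLC chromatin and cytoplasm replicate 3, 1 message was lower in the test between the states. Without mt-Atp8, the share of mt-Co3 was 41.9% in nESC nucleoplasm, 54.1% in nESC total RNA, 47.7% in EpiLC chromatin, 40.3% in EpiLC nucleoplasm and 46.3% in EpiLC total RNA.

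With 1 library left out, chromatin over cytoplasm had medians from 0.040 to 0.65 in nESC (3 to 5 higher, 3 to 4 lower) and -0.033 to 1.03 in EpiLC (3 to 5 higher, 0 to 1 lower). Chromatin over nucleoplasm had -2.04 to -1.73 in nESC (7 to 8 lower) and -2.88 to -1.86 in EpiLC. Nucleoplasm over cytoplasm had 1.89 to 2.04 (9 higher) and 2.80 to 3.22 (10 higher), and cytoplasm over total RNA -0.69 to -0.48 (4 lower) and -1.47 to -1.31 (5 to 7 lower). The difference between the states had 0.54 to 1.55 (1 to 5 higher, 0 to 1 lower). The share of mt-Co3 ranged in nESC from 19.2% to 26.3% in chromatin, 36.2% to 36.5% in nucleoplasm, 65.9% to 68.4% in cytoplasm and 48.5% to 50.2% in total RNA, and in EpiLC from 38.5% to 44.2%, 31.9% to 32.4%, 48.8% to 55.5% and 34.3% to 34.9%. The cause of these shifts was not tested.

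The labels share replicate numbers across groups, but over all genes same-numbered libraries did not deviate together (correlations from -0.219 to 0.177). For the 10 messages alone, EpiLC replicate 3 was high in all 4 groups. The replicate block gave 9 lower calls in EpiLC cytoplasm against total RNA and 5 higher calls between the states, with mt-Co2 added in both. Taking isolated zeros as missing, such as that of Malat1, left each result on the messages as it was in direction and call. Over all settings 1469 single values kept direction and side of the threshold, 57 passed it, 50 lost it and 4 turned.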

Other observations

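The 3 other coding genes of the mitochondrial genome in the tables, mt-Nd2, mt-Nd3 and mt-Nd4l, all encode complex I subunits. mt-Nd4l, which overlaps mt-Nd4 by 7 bp, was called higher in chromatin than in cytoplasm in nESC (log2 fold 2.17) and EpiLC (1.65) and in nucleoplasm by 3.34 and 3.58. mt-Nd3 was called lower in nESC chromatin (-2.14), and its mean level in nESC was 229 FPKM in chromatin, 1936 in nucleoplasm, 989.97 in cytoplasm and 2717 in total RNA. By mean level it was thus highest in total RNA in nESC, where the 10 messages were highest in nucleoplasm. In EpiLC mt-Nd3 had 1148, 6441, 1393 and 5544 FPKM in the same order. The nucleoplasm mean there rests on replicate 3: its libraries had 3702, 3160 and 12460, and those of total RNA 5454, 4738 and 6441. EpiLC nucleoplasm replicates 1 and 2 thus lay below every EpiLC total RNA library. mt-Nd2 was called higher in nucleoplasm than in cytoplasm by 1.07 in nESC and 2.06 in EpiLC.

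In total RNA the mean level in EpiLC was 3.71 times that in nESC for mt-Atp8, 2.72 times for mt-Nd1, 2.55 times for mt-Cytb, 2.34 times for mt-Atp6, 1.67 times for mt-Co2 and 1.11 times for mt-Nd4. It was 0.870 times for mt-Co3, 0.841 times for mt-Co1, 0.682 times for mt-Nd6 and 0.447 times for mt-Nd5. The tables were normalized separately, so these ratios have no test. Those of mt-Atp8 and mt-Atp6 differ although the frames share a message.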
